A study of Mus musculus with 12 samples.

Results

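The stefin A cluster is a run of paralogous genes on mouse chromosome 16 that encode small cytosolic inhibitors of cysteine proteases. Its members here are the 7 rows of the count table with the symbols Stfa1, Stfa2, Stfa2l1, Stfa3, BC100530, BC117090 and Gm5483, out of 54532 genes listed and 14894 genes tested, and all 7 passed the filter on low counts. They were selected because they stood out as lower at 10 µM indole-3-propionic acid (IPA) than with vehicle, so their values in that comparison are given as a description without a test.

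RNA-seq was made from wild-type C57BL/6 mouse bone marrow cells cultured in medium with GM-CSF and IL-6, cytokines that drive myeloid differentiation, and harvested on day 5. The cultures received 0.1% DMSO (vehicle), 10 µM IPA or 50 µM IPA, a tryptophan metabolite made by gut bacteria, and each of these 3 groups holds 4 libraries. The titles of all 12 libraries carry the word "activated", so whatever it stands for is common to the 3 groups. No label or method says whether the 4 libraries of a group came from separate mice or from separate cultures, so p values measure the spread between these libraries, which may be technical.

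Stefins are type 1 cystatins, proteins without a signal peptide that sit in the cytosol and block papain-like cysteine proteases such as cathepsins B, H, L and S by filling their active-site cleft. The cleft is closed by the amino end of the stefin together with hairpin loops, the first of which carries a Gln-x-Val-x-Gly motif. In the mouse the stefin A gene has been copied several times, and the copies are known for high expression in neutrophils and their precursors.

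The 7 genes lie within 298.6 kb, from 36156811 to 36455392 on chromosome 16 of GRCm38, 3 of them on the plus strand and 4 on the minus strand. Each is annotated as protein coding, with 3 coding exons. In order along the chromosome they are Stfa2l1 (chr16:36156811-36161953, plus strand), Gm5483 (chr16:36184212-36188111, plus), Stfa1 (chr16:36276951-36285373, plus), BC117090 (chr16:36321665-36334332, minus), BC100530 (chr16:36359382-36367748, minus), Stfa2 (chr16:36403992-36408457, minus) and Stfa3 (chr16:36450537-36455392, minus). A pair of further family members, Gm5416 (chr16:36210403-36217788) and 2010005H15Rik (chr16:36221468-36257444), stand between Gm5483 and Stfa1 and serve below as relatives that the selection left out.

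How alike the copies are bears on every count, because a read that matches several of them cannot be placed. The following 63 coding bases per gene, taken from the GENCODE M21 transcripts and shown 5′ to 3′, surround the first inhibitory loop, and the capitals mark the codons of the Gln-x-Val-x-Gly motif.
BC100530: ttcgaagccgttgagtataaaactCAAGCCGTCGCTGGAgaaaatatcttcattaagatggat
BC117090: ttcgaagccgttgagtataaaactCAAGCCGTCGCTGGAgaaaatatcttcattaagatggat
Stfa1: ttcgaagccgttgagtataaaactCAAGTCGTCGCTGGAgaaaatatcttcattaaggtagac
Gm5416: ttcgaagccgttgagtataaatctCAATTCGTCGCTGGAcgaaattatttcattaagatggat
Stfa3: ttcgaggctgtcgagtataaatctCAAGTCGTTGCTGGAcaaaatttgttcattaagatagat
Gm5483: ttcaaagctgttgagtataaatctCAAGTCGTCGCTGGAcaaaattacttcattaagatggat
2010005H15Rik: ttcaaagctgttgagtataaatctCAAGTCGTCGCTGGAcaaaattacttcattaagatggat
Stfa2: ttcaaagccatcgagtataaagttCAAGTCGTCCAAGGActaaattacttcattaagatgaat
Stfa2l1: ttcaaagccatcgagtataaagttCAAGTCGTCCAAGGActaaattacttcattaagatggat
Over this stretch BC117090 did not differ from BC100530, Stfa1 differed from it at 4 bases, Gm5483 at 7, Stfa3 at 10, Stfa2l1 at 13 and Stfa2 at 14. Stfa2l1 differed from Stfa2 at 1 base.

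Over the whole aligned coding sequence the copies fell into close sets. BC100530 was 97.9% identical to Stfa1 over 291 aligned bases and 97.6% identical to BC117090 over 287. Stfa2 was 96.4% identical to Stfa2l1 over 309 bases, and Gm5483 was 96.9% identical to 2010005H15Rik over 291 bases. Stfa3 had no close copy, its nearest relative being Stfa1 at 86.2%. Gm5416 was nearest to BC100530, at 89.7%.

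**Figure D1:**
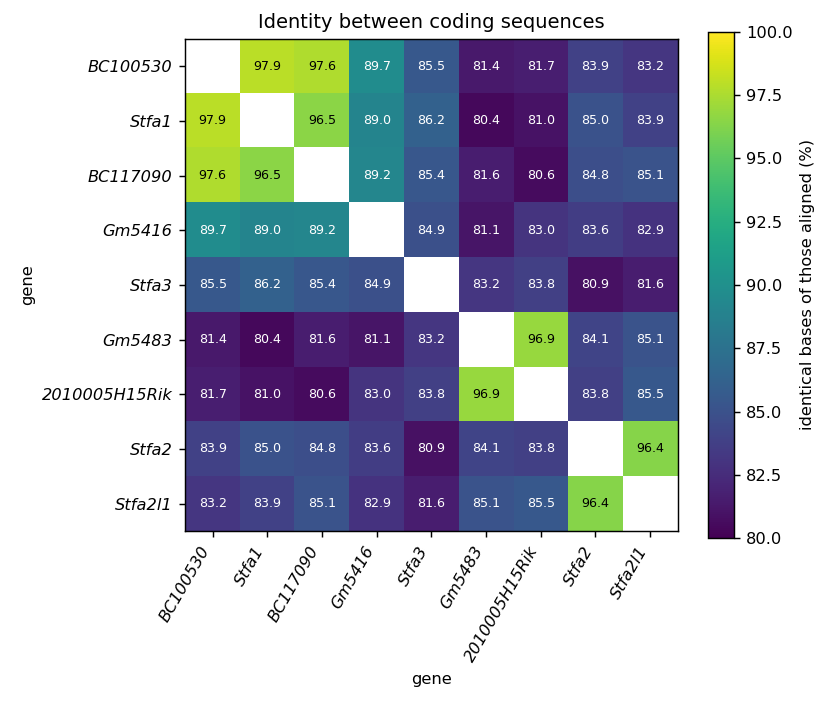
Percent of identical bases among the aligned coding bases for each pair of the 7 stefin A genes and of Gm5416 and 2010005H15Rik, with the color scale from 80% to 100%. BC100530, Stfa1 and BC117090 form one block of 96.5% to 97.9%, Stfa2 and Stfa2l1 another (96.4%), and Gm5483 pairs with 2010005H15Rik (96.9%).

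The share of each transcript that also occurs, base for base, in a transcript of another gene shows how far the counts could be told apart. In windows of 50 bases it was 48.9% for BC100530, 35.6% for Gm5483, 33.7% for BC117090, 25.4% for Stfa1, 24.6% for Stfa2l1 and 15.9% for Stfa2, and no window of Stfa3 recurred. In windows of 100 bases it was 22.3% for BC100530, 13.5% for BC117090, 11.1% for Gm5483, 1.9% for Stfa1 and 0% for Stfa2, Stfa2l1 and Stfa3. How reads with several matches were treated, and the strand setting of the counting, are not given in the sources used here. Counts of single members are therefore uncertain to that degree. Windows were matched on both strands, so the share of BC100530 includes Gm15845, an antisense gene with between 1 and 45 counts per library. Its exons share 145 bases with those of BC100530, and 9.2% of the 100-base windows of BC100530 recur in it. The sum over the 7 genes was followed beside single members, but it is uncertain as well. All shared windows of Gm5483 (35.6% at 50 bases, 11.1% at 100) recur in 2010005H15Rik, which is outside the sum.

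The start sites resembled each other as well. RefSeq promoter windows (GRCm38.p6, 250 bases before to 50 after the start) were matched for 6 of the 7 members, in which BC100530 is named Cstdc5 and Gm5483 is named Cstdc4, and none was matched for BC117090. Whether these sequences bear on the levels of the genes was not tested. The 80 bases around an AT-rich element near each start are shown 5′ to 3′ on the strand of the gene, with TTTAAA in capitals.
Stfa1, chr16:36277073-36277152, plus: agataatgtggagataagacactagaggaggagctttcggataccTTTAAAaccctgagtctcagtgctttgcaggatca
BC100530, chr16:36367545-36367624, minus: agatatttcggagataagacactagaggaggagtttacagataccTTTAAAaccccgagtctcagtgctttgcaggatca
Gm5416, chr16:36210281-36210360, plus: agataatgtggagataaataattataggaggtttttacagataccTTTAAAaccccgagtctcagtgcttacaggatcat
Stfa3, chr16:36455389-36455468, minus: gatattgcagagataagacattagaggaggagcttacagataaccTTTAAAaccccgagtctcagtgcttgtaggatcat
Gm5483, chr16:36184138-36184217, plus: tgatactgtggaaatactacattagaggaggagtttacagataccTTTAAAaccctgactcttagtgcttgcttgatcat
Stfa2, chr16:36408358-36408437, minus: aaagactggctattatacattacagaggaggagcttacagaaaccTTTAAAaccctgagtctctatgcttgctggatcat
Stfa2l1, chr16:36156733-36156812, plus: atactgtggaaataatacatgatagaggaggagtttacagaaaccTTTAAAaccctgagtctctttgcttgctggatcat
The first T of the capitals lay between 29 and 33 bases before the RefSeq start in Stfa1, Stfa2, Stfa2l1, Stfa3 and Gm5483. It lay 9 bases before it in BC100530 and 77 before it in Gm5416.

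The 9 letters CTTTAAAAC, a search chosen after the promoters had been read, occurred in the windows of 6 of 6 members and of Gm5416. Of all 32851 windows, 0.4% held them. Nothing is read from this count, because the letters were taken from these windows. The windows are also copies of each other, 79.5% to 94.5% identical between pairs when aligned around the element. The letters did not occur in the window of 2010005H15Rik. As each window rests on the RefSeq start, whether they lie outside that window was not tested. On either strand, the TATA box letters TATAAA were in 0 of the 6 windows (13.6% of all windows) and the core of the aryl hydrocarbon receptor element, GCGTG, in 1, that of Stfa3 (32.4% of all). The STAT element TTCNNNGAA was in 1, that of Gm5483 (8.3% of all), and the C/EBP letters TTGCNNAA were in 2, those of Stfa1 and BC100530 (10.8%). The AP-1 letters TGANTCA were in 1, that of Stfa3 (7.8%), and the PU.1 letters GAGGAAGT in 0 (3.2%). Aligned around the element, the windows of Stfa1 and BC100530 were 94.5% identical and those of Stfa2 and Stfa2l1 were 91.1% identical, while Stfa1 and Stfa2 shared 82.2%.

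Total counts per library ranged from 20451312 to 28038612, and no library repeated another. In 3 libraries, replicate 4 of vehicle, replicate 1 of 10 µM and replicate 3 of 50 µM, counts fell more clearly with exon length than in the others, with slopes of -0.0383, -0.0485 and -0.0664 log2 units per doubling of length, where the other 9 lay between -0.0118 and 0.041. This touches the stefin A genes, whose transcripts are short (387 to 619 bases), and calls of stefin A and related genes that changed when the 3 libraries were left out together are given below. Markers of granulocytes, monocytes and macrophages were abundant, as is usual for myeloid cultures, with summed levels of 11670 to 17420 CPM for 8 genes of mature neutrophils and 1736 to 1944 CPM for 10 macrophage genes with vehicle, whereas 5 T and NK cell genes and 5 erythroid genes summed to at most 2.37 and 2.03 CPM in any library.

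The 7 stefin A genes together took 0.160% ± 0.0131 (SD, n = 4) of all counts with vehicle. Their summed level, in CPM (counts scaled to a common library total, with edgeR's TMM factors), was 1664, 1699, 1468 and 1543 in vehicle replicates 1 to 4. It was 1057, 870.2, 968 and 935 in the 10 µM replicates, and 769.6, 626.5, 880.1 and 782 in the 50 µM replicates. The vehicle libraries all lay above those with IPA, and the highest 50 µM library (replicate 3) lay just above the lowest 10 µM library (replicate 2).

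Relative to vehicle, the sum was 39.9% lower at 10 µM (log2 fold change -0.74, standard error 0.07) and 51.8% lower at 50 µM (log2 fold change -1.05, standard error 0.10). From 10 to 50 µM it stood at a ratio of 0.80 (log2 fold change -0.32, 95% interval -0.51 to -0.13). In bulk RNA, fewer cells that express these genes and less RNA per cell cannot be told apart. The paper reports slightly lower viability of such cultures at the higher IPA concentration. For that reason it centered its RNA-seq analysis on the lower one. By flow cytometry it reports a dose-dependent drop in Ly6C-high monocytes, with neutrophil abundance unchanged. Whether viability or cell make-up bears on the stefin A levels was not tested.

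**Figure D2:**
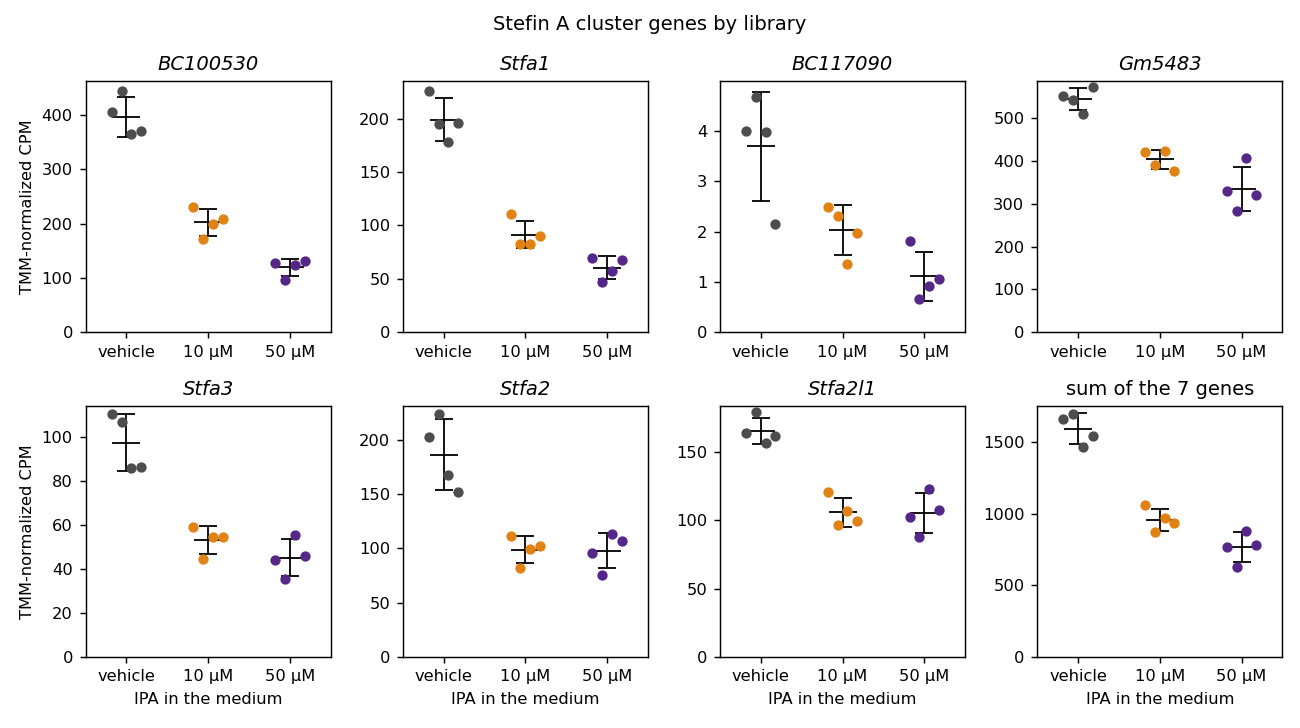
TMM-normalized CPM of each stefin A gene and of their sum (vertical axes, each from 0) by IPA concentration, with 1 point per library and the mean ± SD of 4 libraries. For all 7 genes the 4 libraries at 50 µM lie below the 4 vehicle libraries, and Stfa2 and Stfa2l1 have about the same mean at 10 and 50 µM.

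Gm5483 had the highest level per length with vehicle, 1316 ± 61.6 CPM per kb of transcript (SD, n = 4). It was followed by BC100530 (640.3 ± 59.8), and then by Stfa2 (396 ± 69.7), Stfa2l1 (395 ± 23.2) and Stfa1 (387 ± 39.01), whose ranges overlapped. Stfa3 came next (237 ± 31.7), and BC117090 was nearly silent at 9.57 ± 2.81. The first place of Gm5483 rests on the length used, since over all its annotated exons (1862 bases) it had 292.6 CPM per kb, below BC100530 (502), Stfa2 (395.9) and Stfa2l1 (395.4) on the same scale.

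At 50 µM the order of levels per length had changed below Gm5483 (810.3 ± 123.8 CPM per kb). Stfa2l1 (251 ± 34.8), Stfa2 (208 ± 34.9) and BC100530 (193 ± 25.7) followed, each overlapping the next in range. Stfa1 (117 ± 20.7) and Stfa3 (109.7 ± 20.1) overlapped as well, and BC117090 was last (2.87 ± 1.27). Over all annotated exons, Gm5483 had 180.2 CPM per kb at 50 µM, below Stfa2l1 (251.3) and Stfa2 (207.8).

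BC100530 (ENSMUSG00000071561) and Stfa1 (ENSMUSG00000071562), a stefin A copy and its close relative, fell at each step of dose. BC100530 stood at 405, 445, 364 and 371 CPM in the vehicle libraries, at 230.2, 171, 198 and 208 at 10 µM, and at 126.5, 95.9, 123 and 131 at 50 µM. Stfa1 stood at 226, 195, 178 and 196 CPM with vehicle, at 110.3, 82.9, 82.8 and 90.03 at 10 µM, and at 69.4, 46.5, 57.5 and 68.0 at 50 µM. For both genes the 3 groups did not overlap.

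At 10 µM the log2 fold change against vehicle was -0.97 (standard error 0.10) for BC100530 and -1.12 (standard error 0.10) for Stfa1. At 50 µM BC100530 was 3.31-fold lower than with vehicle (log2 fold change -1.73, standard error 0.10, adjusted p = 6.56e-07 by edgeR's quasi-likelihood test). Stfa1 was 3.28-fold lower (log2 fold change -1.71, standard error 0.12, edgeR adjusted p = 2.35e-06). From 10 to 50 µM the falls were 40.9% for BC100530 (log2 fold change -0.76, edgeR adjusted p = 9.74e-05) and 34.0% for Stfa1 (log2 fold change -0.60, edgeR adjusted p = 0.00285). These comparisons reuse the vehicle and the 10 µM libraries on which the genes had been selected.

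BC117090 (ENSMUSG00000079594), the third copy of that set, had only 18 to 126 counts per library. Its level was 4.01, 4.68, 3.99 and 2.15 CPM with vehicle, 2.498, 2.32, 1.35 and 1.97 at 10 µM, and 1.81, 0.659, 0.922 and 1.05 at 50 µM. Vehicle replicate 4 overlapped the 10 µM libraries, and no 50 µM library reached the vehicle range. The log2 fold change against vehicle was -0.87 at 10 µM (standard error 0.27). At 50 µM it was -1.75 (standard error 0.33, edgeR adjusted p = 0.00351), and from 10 to 50 µM it was -0.88 (95% interval -1.60 to -0.17, edgeR adjusted p = 0.0902). The last value was called without replicate 1 of the 50 µM group (log2 fold change -1.21, edgeR adjusted p = 0.0294). As its windows recur in BC100530, reads of that far more abundant copy could be among its counts.

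Stfa2 (ENSMUSG00000022902) and Stfa2l1 (ENSMUSG00000059657) form the other close pair. Stfa2 had 202.5, 224, 167 and 152 CPM with vehicle, 111, 81.6, 99.8 and 102 at 10 µM, and 95.6, 75.8, 113 and 107 at 50 µM. Stfa2l1 had 164, 179.6, 157 and 162 CPM with vehicle, 120.9, 96.9, 107 and 99.8 at 10 µM, and 103, 87.7, 123 and 108 at 50 µM. Both separated vehicle from either IPA group, and the libraries of the 2 concentrations overlapped.

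Against vehicle, the log2 fold change of Stfa2 was -0.92 at 10 µM (standard error 0.13) and -0.92 at 50 µM (standard error 0.13, edgeR adjusted p = 0.000617). That of Stfa2l1 was -0.64 at 10 µM (standard error 0.08) and -0.65 at 50 µM (standard error 0.10, edgeR adjusted p = 0.000642). Between 10 and 50 µM the log2 fold change was -0.01 for Stfa2 (95% interval -0.25 to 0.23, edgeR adjusted p = 0.967) and -0.01 for Stfa2l1 (95% interval -0.21 to 0.20, edgeR adjusted p = 0.969). A change between the concentrations was not detectable for either gene, within these intervals, and the sign of both values turned in some fits that left out 1 library.

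Gm5483 (ENSMUSG00000079597), the copy nearest to 2010005H15Rik, had 551.5, 543.5, 511 and 573 CPM in vehicle replicates 1 to 4. It had 422, 391, 425 and 378 at 10 µM, and 329.8, 284, 406 and 321 at 50 µM. Replicate 3 was the highest 50 µM library and the one that overlapped the 10 µM group. The log2 fold change against vehicle was -0.43 at 10 µM (standard error 0.06), the smallest of the 7, and -0.69 at 50 µM (standard error 0.10, edgeR adjusted p = 0.000485).

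Stfa3 (ENSMUSG00000054905), the copy without a close relative, had 110.6, 107, 86.2 and 86.6 CPM with vehicle, 59.3, 44.4, 54.6 and 54.5 at 10 µM, and 43.9, 35.5, 55.6 and 45.8 at 50 µM. The vehicle libraries lay above all others, and the IPA groups overlapped. Its log2 fold change against vehicle was -0.88 at 10 µM (standard error 0.11) and -1.10 at 50 µM (standard error 0.13, edgeR adjusted p = 0.000113). No 50-base window of Stfa3 recurs base for base in another annotated transcript. Matches with mismatches, or outside annotated transcripts, were not searched.

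From 10 to 50 µM, the log2 fold change was -0.26 for Gm5483 (95% interval -0.46 to -0.07, edgeR adjusted p = 0.0599) and -0.24 for Stfa3 (95% interval -0.49 to 0.02, edgeR adjusted p = 0.199). Neither passed the threshold of 0.05. Gm5483 was called by DESeq2 (adjusted p = 0.0362) and by limma-voom (adjusted p = 0.0439). Both were called once the third 50 µM library was left out, and the log2 fold change was -0.37 for Gm5483 (edgeR adjusted p = 0.00278) and -0.35 for Stfa3 (edgeR adjusted p = 0.0453). Without replicate 2 of that group it was -0.19 for Gm5483 (edgeR adjusted p = 0.184) and -0.13 for Stfa3 (edgeR adjusted p = 0.49). With all 3 libraries of steepest length slope left out, it was -0.35 for Gm5483 (edgeR adjusted p = 0.00246).

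**Figure D3:**
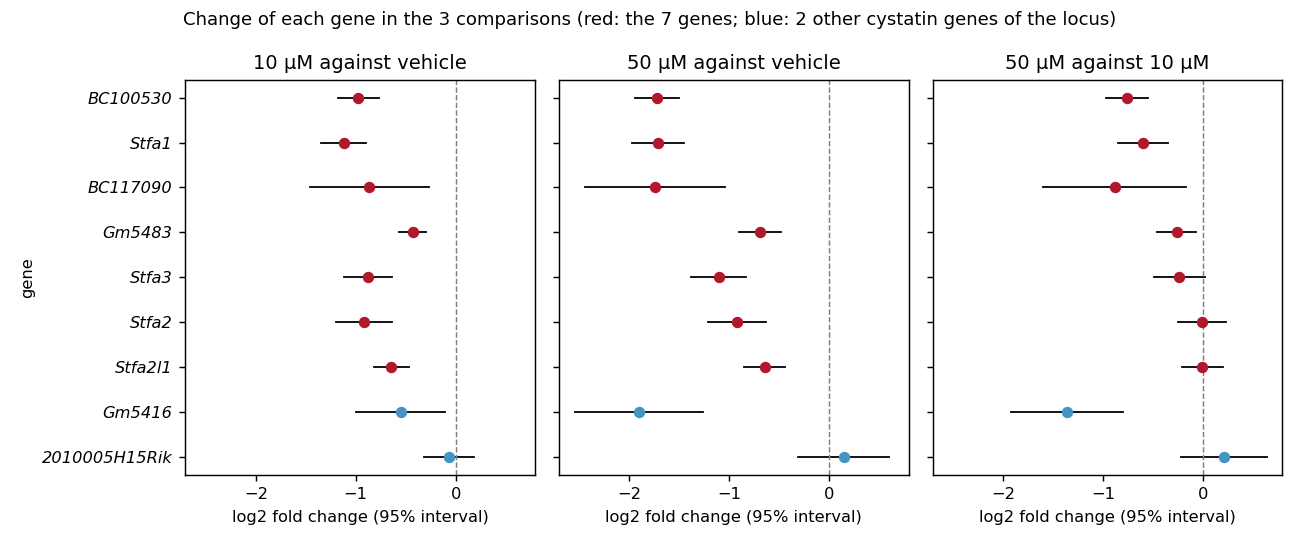
Log2 fold change of each gene with its 95% interval (horizontal axes) in the 3 comparisons, red for the 7 stefin A genes and blue for Gm5416 and 2010005H15Rik, with a dashed line at 0. The genes were selected on the left panel. In the right panel BC100530 (-0.76) and Stfa1 (-0.60) lie below 0, while the intervals of Stfa2 and Stfa2l1 are centered at -0.01.

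Counted over the cluster, 6 of 7 genes had every 10 µM library below every vehicle library, as had 2.56% of all genes tested. Nothing is read from this count, because the genes were selected on that contrast. The vehicle libraries on which they were selected also enter the next comparison, so its counts are not independent of the selection. At 50 µM against vehicle, 7 of 7 were lower by edgeR's test (6.50% of all genes tested were called lower, 7.00% higher) and 7 of 7 had groups that did not overlap (10.5% of all genes lay in that direction). The median log2 fold change was -1.10 over the 7 genes and 0.01 over all genes tested. At 50 against 10 µM, which shares the 10 µM libraries with the selection, 2 of 7 were called lower (7.85% of all genes, with 7.52% called higher), the same 2 that did not overlap (10.9% of all genes in that direction). More were called in 9 of 18 alternative fits, namely 4 of 7 without replicate 3 of the 50 µM group or with an offset for exon length, and 3 of 7 in the other 7. The median log2 fold change between the concentrations, with all 8 libraries, was -0.26 over the 7 genes and 0.01 over all genes.

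Ratios of counts within a library do not depend on scaling between libraries. BC100530 over Stfa1 was 1.79, 2.28, 2.05 and 1.89 in the vehicle libraries, 2.09, 2.07, 2.40 and 2.32 at 10 µM, and 1.82, 2.06, 2.14 and 1.93 at 50 µM. Stfa2 over Stfa2l1 was 1.23, 1.25, 1.06 and 0.939 with vehicle, 0.919, 0.842, 0.936 and 1.025 at 10 µM, and 0.931, 0.865, 0.922 and 0.990 at 50 µM. The 3 groups overlapped in the first ratio, and in the second 3 of 4 vehicle libraries lay above all 8 IPA libraries.

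Ratios of copies that are less alike were taken as well. BC100530 over Stfa2 was 2.00, 1.99, 2.18 and 2.44 with vehicle, 2.07, 2.10, 1.99 and 2.04 at 10 µM, and 1.32, 1.265, 1.09 and 1.23 at 50 µM. All 50 µM libraries lay below the other 8, among which vehicle and 10 µM overlapped. Stfa1 over Stfa2l1 was 1.20 ± 0.129 (SD, n = 4) with vehicle, 0.862 ± 0.0620 at 10 µM and 0.576 ± 0.0950 at 50 µM, and its 3 groups did not overlap. Stfa3 over Stfa2 was 0.527 ± 0.0400 with vehicle, 0.539 ± 0.007 at 10 µM and 0.462 ± 0.0250 at 50 µM, where the 50 µM libraries lay below those of 10 µM and overlapped those of vehicle, and Gm5483 over Stfa2l1 was 3.295 ± 0.213, 3.82 ± 0.246 and 3.185 ± 0.142, with vehicle overlapping both IPA groups. These pairs were chosen after the values had been seen, so they are given without a test.

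**Figure D4:**
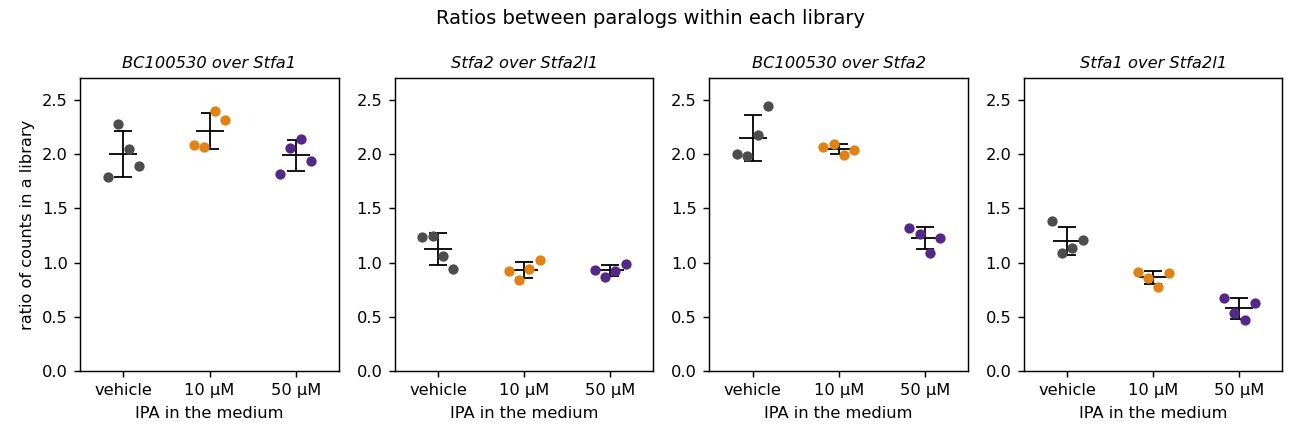
Ratio of the counts of 1 gene to those of another within each library (vertical axes from 0) by IPA concentration, with 1 point per library and the mean ± SD of 4 libraries. BC100530 over Stfa1 averages 2.00, 2.22 and 1.99 in the 3 groups, whereas BC100530 over Stfa2 drops from 2.05 ± 0.0470 at 10 µM to 1.23 ± 0.100 at 50 µM.

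The make-up of the cluster shifted with these changes. BC100530 gave 24.9% ± 0.951 of the summed stefin A counts with vehicle, 21.1% ± 1.19 at 10 µM and 15.6% ± 1.26 at 50 µM (SD, n = 4 each). Stfa1 gave 12.5% ± 0.903, 9.54% ± 0.774 and 7.92% ± 1.15. Gm5483 gave 34.3% ± 2.23 with vehicle, 42.3% ± 2.47 at 10 µM and 43.9% ± 2.34 at 50 µM. Stfa2l1 gave 10.4% ± 0.372, 11.1% ± 0.320 and 13.8% ± 0.304, the 50 µM libraries lying above the other 8. The share of Stfa2 (11.6% ± 1.41, 10.3% ± 0.663 and 12.8% ± 0.671) overlapped between vehicle and 50 µM, and Stfa3 stayed between 5.10% and 6.65% in every library. BC117090 made up at most 0.275%.

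**Figure D5:**
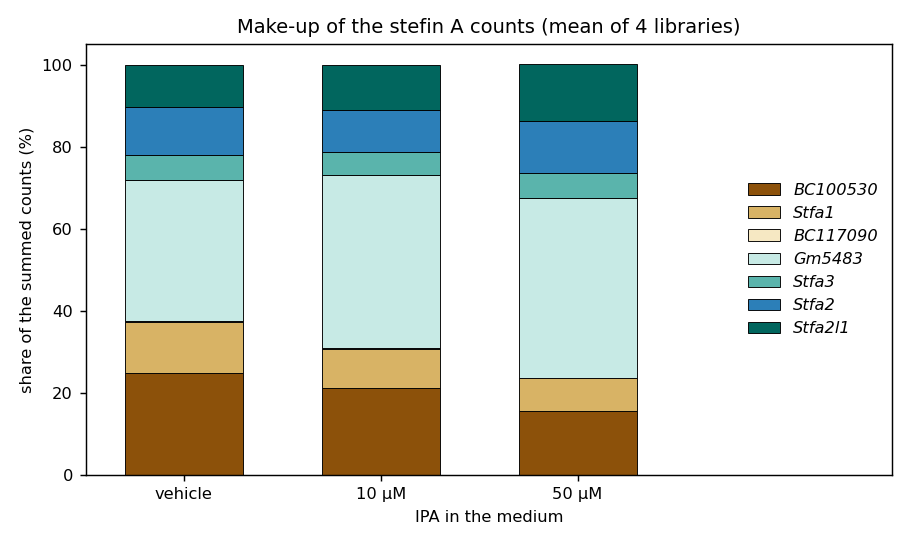
Share of the summed stefin A counts taken by each gene (vertical axis, percent, stacked), as the mean of 4 libraries per IPA concentration. BC100530 and Stfa1 shrink from 24.9% and 12.5% with vehicle to 15.6% and 7.92% at 50 µM, while Gm5483 grows from 34.3% to 43.9%.

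The spread within groups was compared between copies. After removal of the group means, Pearson's r between the log2 levels of 2 members ranged from 0.33 (Stfa1 and Gm5483) to 0.94 (Stfa2 and Stfa3), with a median of 0.80 over 15 pairs, leaving out BC117090 for its low counts (-0.05 with Gm5483, 0.26 with Stfa2l1 and 0.29 with Stfa3). These values come from 12 libraries, whose depth and preparation the genes share, and are given as a description. The pair Stfa2 and Stfa3 shares no 50-base window.

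The family members that the selection left out went separate ways. Gm5416, the cystatin gene nearest to BC100530 outside the selection, had 4.76, 9.28, 8.19 and 9.14 CPM with vehicle, 6.34, 5.22, 4.475 and 5.36 at 10 µM, and 3.03, 1.21, 1.36 and 2.77 at 50 µM. The 50 µM libraries lay below all others, and vehicle replicate 1 lay within the range of 10 µM. Its log2 fold change was -0.55 at 10 µM (edgeR adjusted p = 0.416), -1.91 at 50 µM against vehicle (standard error 0.30, edgeR adjusted p = 0.000999) and -1.36 between the concentrations (standard error 0.27, edgeR adjusted p = 0.00255). Like BC100530 and Stfa1, it passed the test between 10 and 50 µM.

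2010005H15Rik, 96.9% identical in coding sequence to Gm5483, had 88.0, 70.1, 66.5 and 76.8 CPM with vehicle, 70.6, 62.1, 87.1 and 67.5 at 10 µM, and 67.9, 61.9, 137.5 and 64.5 at 50 µM. Its groups overlapped throughout, and its log2 fold change at 50 µM against vehicle was 0.14 (95% interval -0.32 to 0.60, edgeR adjusted p = 0.715). Replicate 3 of the 50 µM group held the high value, and without it the log2 fold change was -0.22 (edgeR adjusted p = 0.209). The ratio of Gm5483 to this gene was 7.29 ± 0.696 with vehicle, 5.69 ± 0.614 at 10 µM and 4.35 ± 0.942 at 50 µM (SD, n = 4), and the 4 libraries of 50 µM lay below the 4 of vehicle. Reads of either gene could be among the counts of the other, as 35.6% of the 50-base windows of Gm5483 recur in 2010005H15Rik.

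Of 29 other cystatin family symbols looked up, 20 were in the table and 5 were tested, namely these 2 genes with Cstb, Cst3 and Cst7. Cstb, which encodes stefin B, the other mouse stefin, had 179 ± 26.1 CPM with vehicle, 209.9 ± 32.3 at 10 µM and 219 ± 27.98 at 50 µM (SD, n = 4). Its log2 fold change at 50 µM was 0.29 (95% interval 0.05 to 0.54, edgeR adjusted p = 0.104). Cst3, the secreted inhibitor cystatin C, had 720.4 ± 74.6, 757.5 ± 97.7 and 724.5 ± 77.2 CPM, with a log2 fold change of 0.02 at 50 µM (95% interval -0.19 to 0.22, edgeR adjusted p = 0.943). By edgeR, 0 of the 5 genes were called at 10 µM, where 1 had an unadjusted p under 0.05 and DESeq2 and limma-voom each called 0, and 1 of the 5, Gm5416, was called lower at 50 µM (6.50% of all genes). Without replicate 4 of vehicle, Cstb was called at 50 µM as well (log2 fold change 0.39, edgeR adjusted p = 0.0106), as it was without the 3 libraries of steepest length slope (0.29, edgeR adjusted p = 0.0141).

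The cysteine cathepsins are the targets of stefins. Of 10 tested, 9 had a log2 fold change above 0 at 10 µM against vehicle, 5 at 50 µM against vehicle and 1 at 50 against 10 µM. By edgeR, 1 was called higher and 0 lower at 10 µM against vehicle (0.329% of all genes were called higher and 0.0806% lower), and by unadjusted p 6 of the 10 were under 0.05, with 2 called by DESeq2 and 1 by limma-voom. At 50 µM 1 was higher and 1 lower (7.00% and 6.50% of all genes), and between the concentrations 1 was higher and 3 were lower (7.52% and 7.85% of all genes). The median log2 fold change of the 10 was 0.30, -0.02 and -0.22 in these comparisons.

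Ctsl, the lysosomal endopeptidase cathepsin L, was the one that rose in all 3 comparisons. It had 380 ± 59.9 CPM with vehicle, 662 ± 47.3 at 10 µM and 852 ± 59.1 at 50 µM (SD, n = 4), and no groups overlapped. The log2 fold changes were 0.80 (edgeR adjusted p = 0.0102) at 10 µM, 1.17 (edgeR adjusted p = 1.54e-05) at 50 µM and 0.37 (edgeR adjusted p = 0.00188) between them. The first of these calls was lost without replicate 1 of vehicle (log2 fold change 0.77, edgeR adjusted p = 0.0652) and without replicate 2 of 10 µM (0.78, edgeR adjusted p = 0.0705).

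Ctsc, cathepsin C or dipeptidyl peptidase 1, which activates granule serine proteases, was lower at 50 µM than with vehicle (log2 fold change -0.47, edgeR adjusted p = 0.00465) and than at 10 µM (-0.71, edgeR adjusted p = 1.04e-06). Ctss, cathepsin S of antigen-presenting cells, had 907 ± 145.8 CPM with vehicle (log2 fold change at 50 µM against vehicle -0.19, edgeR adjusted p = 0.245). It fell from 1145 ± 71.6 CPM at 10 µM to 789 ± 38.94 at 50 µM (SD, n = 4; log2 fold change -0.54, edgeR adjusted p = 3.5e-05). Ctsk, cathepsin K of osteoclasts, was low, with 4.26 ± 1.97 CPM with vehicle (log2 fold change at 50 µM against vehicle -0.115, edgeR adjusted p = 0.84). It fell from 7.92 ± 1.62 to 3.91 ± 0.546 CPM (log2 fold change -1.01, edgeR adjusted p = 0.000869). Ctsb, cathepsin B, had a log2 fold change of 0.24 at 50 µM against vehicle (edgeR adjusted p = 0.0819), and Ctsh, cathepsin H, one of 0.06 (edgeR adjusted p = 0.758). Without replicate 4 of vehicle, Ctsb was called at 50 µM (log2 fold change 0.28, edgeR adjusted p = 0.0179) and Ctsc was called higher at 10 µM (0.33, edgeR adjusted p = 0.0386). Without replicate 2 of vehicle, Ctss was called lower at 50 µM than with vehicle (-0.29, edgeR adjusted p = 0.0398). Without the 3 libraries of steepest length slope, Ctsb was called at 50 µM against vehicle (0.28, edgeR adjusted p = 0.0259), Ctsc at 10 µM (0.32, edgeR adjusted p = 0.0493) and Ctsh at 50 against 10 µM (-0.26, edgeR adjusted p = 0.0103).

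Within 500 kb of the cluster 24 other genes were tested, Gm5416 and 2010005H15Rik among them. By edgeR, 0 were called at 10 µM, where 2 had an unadjusted p under 0.05 and DESeq2 and limma-voom called 0. At 50 µM against vehicle 3 of the 24 were lower (6.50% of all genes), namely Gm5416, Gm15845, the antisense gene that overlaps BC100530 (log2 fold change -1.91, edgeR adjusted p = 0.0458), and the small nuclear RNA gene Gm25465 just beside BC100530 (-3.82, edgeR adjusted p = 0.0445). In 9 of 18 alternative fits Gm5416 was the only one called, including every fit that left out 1 library other than replicate 4 of vehicle. Between 10 and 50 µM, Gm5416 and Fam162a, a hypoxia-induced mitochondrial protein gene (log2 fold change -0.48, edgeR adjusted p = 0.00199), were lower, 2 of the 24 where 7.85% of all genes were. The median log2 fold change of the 24 was -0.04, -0.05 and 0.07 in the 3 comparisons.

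Genes whose level followed the stefin A sum most closely over the 12 libraries were sought among the 12600 genes that averaged 1 CPM or more. The 5 highest Pearson correlations of log2 levels were those of Exosc2, a subunit of the RNA exosome (0.962), Ncapg2, a condensin II subunit (0.944), Rbm38, an RNA-binding protein (0.939), Rpia, ribose 5-phosphate isomerase (0.938), and Ankrd13c (0.930), none of them on chromosome 16. With group means removed, r was 0.86, 0.23, 0.69, 0.46 and 0.37. Their log2 fold changes at 50 µM against vehicle were -0.28, -0.47, -0.62, -0.40 and -0.35.

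Markers of the cell types in the culture moved in the same comparisons. The list for primary granules of immature neutrophils held Mpo, Elane, Prtn3, Ctsg and Ms4a3. The paper places Ms4a3, like Chil3, with genes of immature and progenitor myeloid cells and differentiation regulators. The 5 genes of this list, led by Mpo, summed to between 1623 and 2346 CPM with vehicle. Their sum was between 1537 and 1718 at 10 µM and between 775.5 and 1108 at 50 µM. Of these, 5 of 5 were called lower at 50 µM against vehicle, where 6.50% of all genes were called lower and 7.00% higher. Of 7 secondary granule genes, led by Chil3, 4 were called lower at 50 µM, with sums of 19270 to 23200 CPM with vehicle, 16220 to 18110 at 10 µM and 14260 to 17430 at 50 µM. Of 8 mature neutrophil genes, led by S100a9, 3 were lower and 1 higher at 50 µM, and their sums overlapped between vehicle (11670 to 17420 CPM) and 50 µM (9440 to 13720 CPM). The part of such shifts in the stefin A result was not tested.

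Against the same shares of all genes, 3 of 5 monocyte genes, led by Fn1, were lower at 50 µM against vehicle, with sums of 2532 to 3227 CPM with vehicle, 3671 to 4744 at 10 µM and 2212 to 2951 at 50 µM. Of 10 macrophage genes, led by Csf1r, 2 were higher and 3 lower at 50 µM, with sums of 2080 to 2284 CPM at 10 µM and 1760 to 1882 at 50 µM. Dendritic cell genes summed to 83.9 to 99.3 CPM with vehicle and 110.2 to 143 at 50 µM, and B cell genes to 18.3 to 25.4 and 36.5 to 56.6. Mast cell and basophil genes summed to between 159.8 and 262.5 CPM and eosinophil genes to between 795.5 and 1251 CPM over all 12 libraries. At 10 µM, 1 secondary granule gene (Chil3) was called lower, and 1 monocyte gene (Fn1) and 3 macrophage genes were called higher, where 0.0806% of all genes were lower and 0.329% higher. At 50 against 10 µM, 4 of 5 primary granule, 3 of 7 secondary granule, 5 of 5 monocyte and 7 of 10 macrophage genes were called lower and 5 of 5 B cell genes higher, where 7.85% of all genes were lower and 7.52% higher. None of the marker genes was at 0 in every library.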

How the data were processed

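The stefin A genes and the gene lists were chosen with earlier results of these data known. Per the labels and the methods, the authors trimmed reads, aligned them to mm10 with HISAT2 (2.2.1) and deposited raw read counts per Ensembl gene from featureCounts (2.0.1), without normalization. Genes above 0.5 CPM in at least 2 of 12 libraries were kept. Each comparison used its 8 libraries in edgeR 4.0.16 (TMM, glmQLFit, glmQLFTest, R 4.3.3); p values were adjusted by Benjamini-Hochberg across the 14894 genes tested, at a threshold of 0.05. The sum of the 7 genes replaced them as 1 row in a separate fit. The code was tested on simulated data. Groups came from the treatment labels, and the title of replicate 3 at 10 µM repeats that of replicate 2, so its library name was used. Named genes were all members, the list genes called in any comparison with Cstb, Cst3, Ctsb, Ctsh, Ctsl and Ctss, called neighbours within 500 kb, and the 5 genes most like the sum (log2 of CPM plus 0.5). 2010005H15Rik was added after its values had been seen. Alternatives were DESeq2 1.42.0, limma-voom (3.58.1), other size factors, filters of none and of 10 counts in every library, all 12 libraries, a replicate block, offsets for exon length and GC content, and leaving out each library; leaving out together the 3 libraries of steepest negative length slope (vehicle replicate 4, 10 µM replicate 1 and 50 µM replicate 3) was added after seeing the data. Sequences came from GENCODE M21 and RefSeq and were aligned with Biopython 1.88.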

Additional observations from a re-analysis of the deposited data

Results flagged for a closer look

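In 54 groups of 4 libraries (the sum, the 7 stefin A genes and 10 related genes), 3 had 1 library far from the rest by Dixon's test, about the 1 in 20 that chance gives, and all 3 were replicate 3 of the 50 µM group. In it 2010005H15Rik had 137.5 CPM, where the other libraries lay between 61.9 and 67.9. Cstb had 260.1 CPM in the same library, against 201.2 to 210.8 in the others. Ctsh had 264.4 CPM there, against 210.4 to 219.4.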

How the results depend on the processing

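At 50 µM against vehicle, 7 of 7 stefin A genes were called in all 18 alternatives, each of which reuses vehicle libraries on which the genes were selected, and the fall of their sum stayed between -1.17 and -0.98. At 10 µM it stayed between -0.80 and -0.69, and between the concentrations between -0.39 and -0.24. At 50 against 10 µM, 4 of 7 were called with a length offset, and 2 to 4 when 1 library was left out (4 without 50 µM replicate 3). Related genes called at 10 µM numbered 2 with DESeq2, without a filter and without the 3 libraries of steepest negative length slope, and 0 to 2 with 1 library left out; at 50 µM they numbered 5 without those libraries and 3 to 5 with 1 left out; both highest counts came without vehicle replicate 4. Same-numbered libraries did not pair (correlations of deviations from -0.24 to 0.14, and 3 of 12 libraries nearest their own number). A replicate block gave 0 related genes at 10 µM (Ctsl, edgeR adjusted p = 0.17) and 3 of 7 stefin A genes between the concentrations, and kept 7 at 50 µM.

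Signs turned only for log2 fold changes that were not called. At 50 µM against vehicle, Cst3 was -0.05 and -0.036 with offsets for length and GC content, and Ctsk 0.015 with limma-voom and 0.028 without the 3 libraries of steepest length slope. Without these libraries 2010005H15Rik was -0.21 against vehicle and -0.16 against 10 µM. With 1 library left out, values at 50 µM against vehicle ran from -0.22 to 0.25 for 2010005H15Rik, -0.04 to 0.089 for Cst3, -0.024 to 0.14 for Ctsh and -0.31 to 0.14 for Ctsk. At 50 against 10 µM they ran from -0.091 to 0.096 for Stfa2, -0.09 to 0.072 for Stfa2l1, -0.15 to 0.33 for 2010005H15Rik, -0.031 to 0.16 for Cstb and -0.13 to 0.014 for Cst3. At 10 µM 2010005H15Rik ran from -0.18 to 0.016. The cause was not tested. CPM from library totals in place of TMM moved levels by factors of 0.977 to 1.02. The depth of 18 to 126 counts limits BC117090.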
